A study of Rattus norvegicus with 6 samples.

Results

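The AP-1 and immediate early genes described here are Fos, Fosb, Fosl1, Fosl2, Jun, Junb, Jund, Egr1, Atf3 and Ier2. They were chosen by name, with the counts of these same nerves and the crushed against intact difference already known, in particular the uneven Atf3 counts among the crushed nerves. For that reason their own levels and fold changes are given as a description, with no test. Rows were found by gene symbol for 9 of the 10 genes, among 30957 genes in all. The level of Ier2 was not analysed here, and only its promoter was searched. Total RNA was sequenced from the sciatic nerves of Sprague Dawley rats, 3 of them crushed and 3 intact contralateral controls, which the study's methods describe as adult males. According to those methods the proximal stump was taken at 4 days postinjury, while the labels give no day. Nothing states that the nerves of a group came from separate animals, so p-values measure the spread between these samples, which may be technical. RNA extraction was also described differently in the labels, which name a column kit, and in the methods, which name TRIzol followed by ribosomal RNA depletion and RNase R, an enzyme that digests linear RNA.

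Fos and Jun proteins are basic leucine zipper (bZIP) factors that pair into AP-1, a dimer that binds short DNA sites known as the TPA response element (TRE) and the cyclic AMP response element (CRE). Fos family members need a partner such as a Jun protein to bind DNA, whereas Jun proteins can also pair with each other. Many of these genes are switched on within minutes of a stimulus through kinases acting on serum response factor and CREB, without new protein synthesis. In injured peripheral nerve, Jun is known as a driver of the repair state of Schwann cells, and Atf3 is widely used as a marker of injured neurons and Schwann cells.

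Libraries held between 24844371 and 27139360 counts on genes, so the limit of 3 counts corresponded to 0.110 to 0.121 CPM, the count scaled to a common library total and normalized by TMM. In the test across all genes, 387 of 12393 genes (3.12%) passed an adjusted p of 0.05, 182 higher in crushed nerves (1.47%) and 205 lower (1.65%). With limma on log2(FPKM + 0.1), the split was 156 higher and 86 lower. Several markers that define the labelled tissue were at or near 0 counts in all 6 libraries: Mag and Cdh19 had none, Sox10 at most 1 and S100b at most 3. Over 9 Schwann cell and myelin markers, of which 4 were high enough to test, the summed level was 64.99 to 70.1 CPM in intact and 62.7 to 62.8 CPM in crushed nerves. Among all markers edgeR called 4 lower, Erbb3 of this list (log2 fold change −0.59, adjusted p = 0.022), the fibroblast genes Col1a1 (−0.69, adjusted p = 0.00066) and Col3a1 (−1.76, adjusted p = 0.027) and the pericyte gene Pdgfrb (−0.77, adjusted p = 0.0011). Over 7 fibroblast markers, of which Col1a2, Dcn and Lum were at 0, the sum was 186 to 199 CPM in intact and 163 to 182 CPM in crushed nerves, most of it from Thy1 (means of 124 and 106 CPM) and Pdgfra (46.6 and 53.3 CPM), which were not called. Of 5 pericyte and smooth muscle markers it was 20.3 to 23.3 and 14.3 to 16.4 CPM, and of 9 macrophage markers, Ptprc, Adgre1 and Cd163 being at 0, it was 3.94 to 5.57 and 4.21 to 6.001 CPM. Counts of the proliferation gene Mki67 were 37037 to 43837 in intact and 37542 to 39657 in crushed nerves, a high level for adult nerve tissue. These markers go against the label of sciatic nerve, so intact and crushed nerve here mean the libraries labelled as such, and what cells they hold was not determined. The part of these marker levels in the results below was not tested, and in bulk RNA fewer cells of a type and less RNA per cell cannot be told apart.

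Among the 9 genes measured, Junb was higher in crushed nerves and Egr1 lower, each by about the same factor, and Atf3 was uneven among the crushed nerves. The 4 Fos family genes overlapped between the groups. All 9 passed the filter on low counts. In Junb, Egr1 and Jun the groups did not overlap, as in 22.9% of all tested genes, and nothing is read from that count because the genes were chosen with this contrast known. The median log2 fold change of the 9 genes was −0.14, against −0.0017 over all tested genes.

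**Figure D1:**
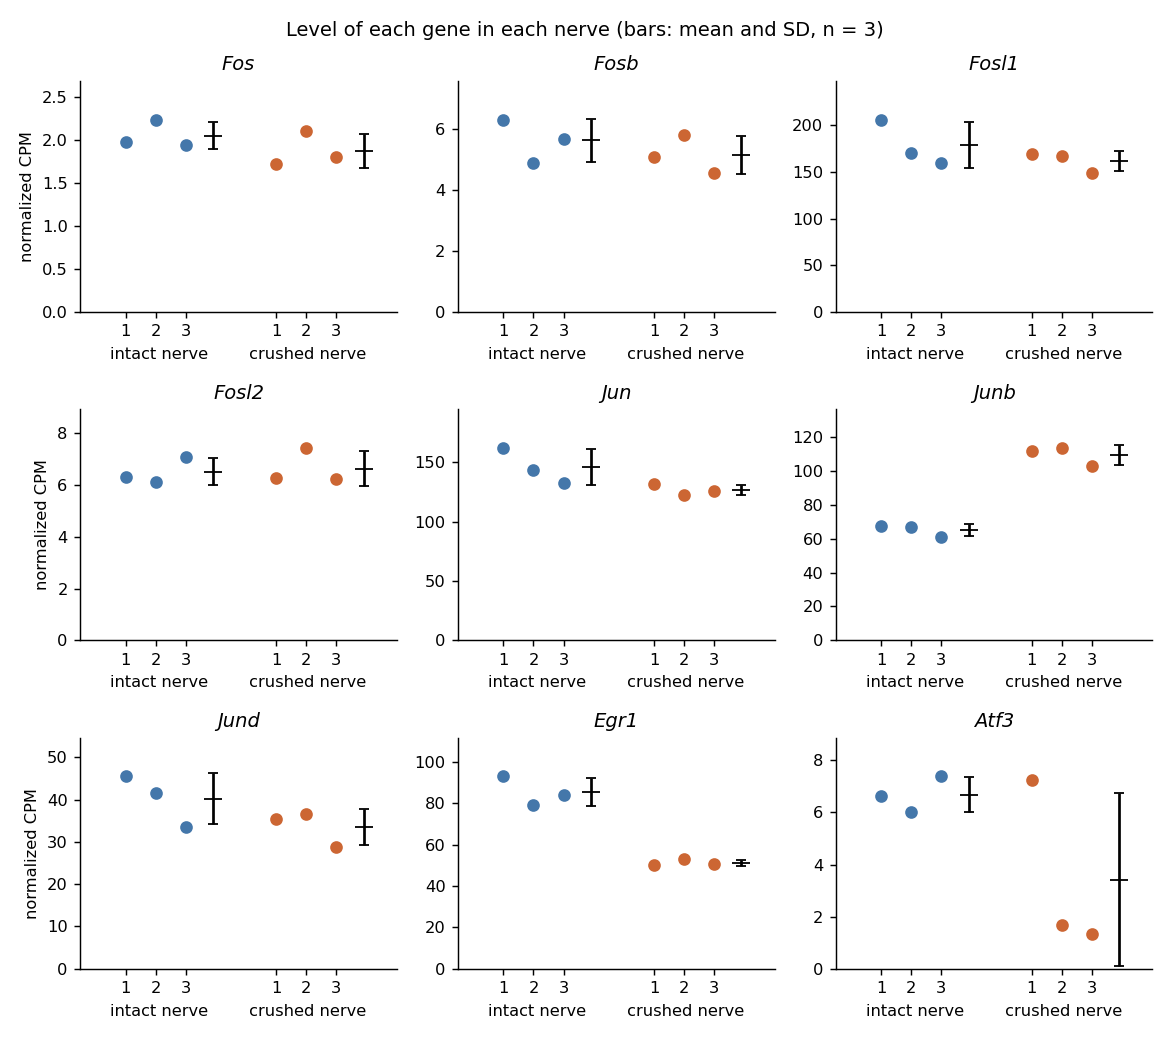
Normalized CPM of the 9 genes in each of the 3 intact (blue) and 3 crushed (orange) nerves, with the mean and SD of each group beside the points and each vertical axis starting at 0. Junb points of the crushed nerves sit above and Egr1 points below all intact nerves, while for Atf3 crushed nerve 1 lies among the intact nerves and crushed nerves 2 and 3 lie far below.

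Fosl1 encodes FRA-1, a Fos family protein that lacks the strong activation domain of Fos and often persists after the early wave. Its level was 206, 170 and 159.5 normalized CPM in intact nerves 1 to 3 and 169, 167 and 149 in crushed nerves 1 to 3, so the groups overlapped. The log2 fold change (crushed over intact) was −0.14 (SE 0.0854), between means of 179 ± 24.6 and 162 ± 10.8 CPM (SD, n = 3 each). On the per-length scale of FPKM, Fosl1 supplied 90.7% ± 1.44 (SD, n = 3) of the Fos family sum in intact and 89.9% ± 0.832 (SD, n = 3) in crushed nerves. It was thus by far the most abundant Fos family transcript in both groups. In the deposited coordinates the gene lies at chr1:220826560-220835066 (Rnor_6.0 per the labels).

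Fosl2, which encodes the related FRA-2, came next in the family per length, at 7.50% of the FPKM sum in intact and 8.26% in crushed nerves. That place rests on implied lengths of 744 bases for Fosl2, 1589 for Fos and 6563 for Fosb, since by counts Fosl2 and Fosb were close and Fos was the lowest. Intact nerves held 160, 162 and 176 counts and crushed nerves 171, 202 and 156, and the groups overlapped. The log2 fold change of 0.03 (SE 0.116) turned negative without intact nerve 2 (−0.0111) and without crushed nerve 2 (−0.0619). The gene lies at chr6:25598936-25616995.

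Fos, the founding member and the usual marker of recent stimulation, had 50, 59 and 48 counts in intact and 47, 57 and 45 in crushed nerves. These counts differed little among the 6 nerves, and the log2 fold change was −0.13 (SE 0.172). Fosb, whose splice form ΔFosB is known for its stability, had 160, 129 and 141 counts in intact and 139, 158 and 114 in crushed nerves, with a log2 fold change of −0.13 (SE 0.138). Both genes overlapped between groups. Fos gave 1.10% and Fosb 0.727% of the intact Fos family FPKM sum, and 1.09% and 0.725% of the crushed one. Their positions are chr6:109300433-109303299 for Fos and chr1:80214494-80221710 for Fosb. Summed over the 4 Fos family genes, the level was 133.5, 112 and 107 FPKM in intact and 112.5, 113 and 101 FPKM in crushed nerves, with overlapping groups.

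Junb encodes a Jun family protein that can oppose the action of Jun at some sites and is known for roles in immune and stromal cells. Counts were 1707, 1772 and 1516 in intact and 3056, 3086 and 2578 in crushed nerves. The corresponding levels were 67.4, 67.1 and 61.2 CPM against 112, 114 and 103 CPM, so the lowest crushed nerve was well above the highest intact nerve. Junb was 1.68-fold higher in crushed nerves, a log2 fold change of 0.75 (SE 0.0566) between means of 65.2 ± 3.53 and 109 ± 5.78 CPM (SD, n = 3 each). Over all alternative fits, including those without 1 nerve, the log2 fold change lay between 0.704 and 0.789. The gene lies at chr19:26092974-26094756 in the deposited coordinates. Its 250 bases before the start site are shown because Junb had the highest log2 fold change of the set, with the core of a CRE (TGACG, found on either strand in 21.2% of 33469 promoters of 300 bases) in capitals. The sequence is from RefSeq, GRCr8, chr19:40080876-40081125, plus strand.
Junb: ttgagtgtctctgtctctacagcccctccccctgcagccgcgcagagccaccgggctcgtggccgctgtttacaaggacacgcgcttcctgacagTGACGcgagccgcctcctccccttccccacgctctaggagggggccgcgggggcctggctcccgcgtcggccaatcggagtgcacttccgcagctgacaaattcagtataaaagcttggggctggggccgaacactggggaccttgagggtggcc
No TRE (TGACTCA), full CRE (TGACGTCA), CArG box or EGR site (GCGTGGGCG) matched in the 300 bases around this start, and a match or its absence is a description of these letters only.

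Jun itself had 4102, 3783 and 3283 counts in intact and 3592, 3333 and 3148 counts in crushed nerves. On the normalized scale the levels were 162, 143 and 132 CPM against 131, 123 and 126 CPM. The highest crushed nerve lay barely below the lowest intact nerve, so the groups were separate by a margin far smaller than the spread within the intact group. The log2 fold change was −0.21 (SE 0.0666), between means of 146 ± 15.0 and 127 ± 4.47 CPM (SD, n = 3 each), and lay between −0.268 and −0.118 over the alternatives. The gene lies at chr5:114011189-114014277. Jund, a Jun family gene known for steady expression in resting cells, had 45.5, 41.6 and 33.6 CPM in intact and 35.5, 36.6 and 28.7 CPM in crushed nerves. Its groups overlapped, with a log2 fold change of −0.26 (SE 0.115). Jund lies at chr16:20485029-20486707, and its RefSeq promoter holds a full CRE, a sequence found in 1.83% of all promoters. The promoter of Ier2, whose level was not analysed, holds a full CRE as well. The Jund window is printed with the CRE in capitals (GRCr8, chr16:18769975-18770002, minus strand).
Jund CRE: cccacccccaTGACGTCAacccacaatg

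Per length, Junb overtook Jun within the Jun family in the crushed nerves, whereas by counts and by CPM Jun stayed above Junb in all 6 nerves. The per-length order rests on the gene lengths implied by the deposited FPKM, 3089 bases for Jun and 1783 for Junb. On the FPKM scale Jun gave 43.8% ± 1.07 of the family sum in intact and 33.5% ± 1.75 in crushed nerves (SD, n = 3 each). Junb gave 34.0% ± 1.61 in intact and 50.2% ± 0.652 in crushed nerves (SD, n = 3 each), which put it first on that scale after crush. Jund gave 22.1% ± 1.37 and 16.3% ± 1.34 (SD, n = 3 each). The 3 genes together summed to 116, 108 and 96.9 FPKM in intact and 127, 126 and 116 FPKM in crushed nerves. Crushed nerve 3 and intact nerve 1 had about the same sum.

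**Figure D2:**
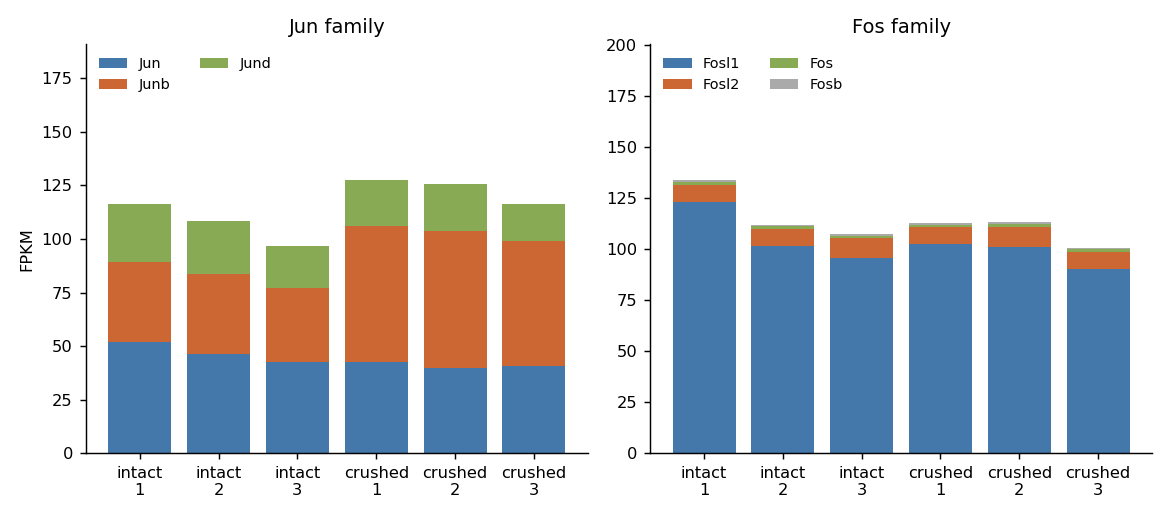
FPKM of each Fos family and Jun family gene in each nerve, stacked so that the bar height is the family sum. Fosl1 fills most of every Fos family bar, and in the Jun family the Junb portion is 34.0% of the intact and 50.2% of the crushed sum on average.

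Egr1 is a zinc finger factor, and a standard immediate early gene that serum response factor activates through CArG boxes. Counts were 2355, 2096 and 2083 in intact and 1368, 1441 and 1270 in crushed nerves. Normalized levels were 93.0, 79.4 and 84.1 CPM against 50.1, 53.1 and 50.7 CPM, and all crushed nerves lay below all intact nerves. The fold was 1.67 in favour of intact nerves, a log2 fold change of −0.74 (SE 0.0625) between means of 85.5 ± 6.93 and 51.3 ± 1.58 CPM (SD, n = 3 each). Over the alternatives it lay between −0.786 and −0.667. Egr1 lies at chr18:27657628-27661429 in the deposited coordinates. Its upstream 250 bases from RefSeq (GRCr8, chr18:26736828-26737077, plus strand) are printed because Egr1 lay below the intact nerves in every crushed nerve by a wide margin, with both CArG boxes and both CRE cores (TGACG read on the other strand) in capitals.
Egr1: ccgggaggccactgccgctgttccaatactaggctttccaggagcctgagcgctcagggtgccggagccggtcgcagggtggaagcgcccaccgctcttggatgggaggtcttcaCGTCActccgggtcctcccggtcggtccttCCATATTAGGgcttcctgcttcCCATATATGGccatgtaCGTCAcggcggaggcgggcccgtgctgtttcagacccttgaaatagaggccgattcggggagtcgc
A CArG box was found in 1.64% of all promoters, and of the 7 RefSeq promoters that matched the 10 genes Egr1 was the one that held it. The entries for Fos, Jun and Atf3 were missing.

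**Figure D3:**
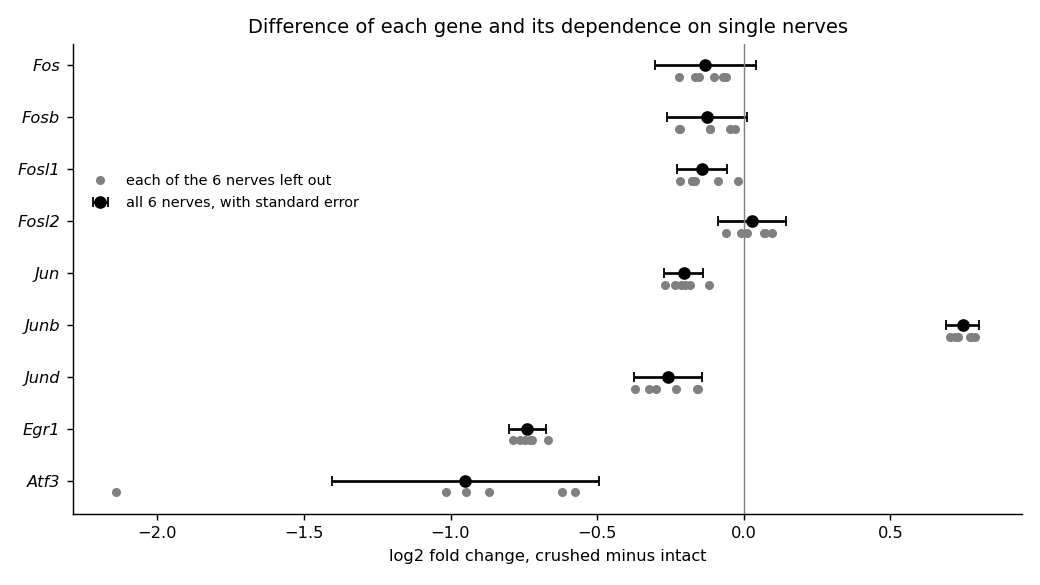
Log2 fold change (crushed over intact) of the 9 genes from edgeR with all 6 nerves (black, bars give the standard error) and with each nerve left out in turn (grey). Junb stands at 0.75 and Egr1 at −0.74 with short bars, and Atf3 at −0.95 has the longest bar (SE 0.454) and a grey point at −2.14.

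Atf3 encodes a bZIP factor of the ATF and CREB family that pairs with Jun proteins and is a common marker of cell stress. Its counts were 168, 159 and 183 in intact nerves and 198, 46 and 33 in crushed nerves. In normalized terms these were 6.64, 6.02 and 7.38 CPM against 7.25, 1.69 and 1.32 CPM. Crushed nerve 1 therefore lay within the intact range, and crushed nerves 2 and 3 lay far below every other nerve. The log2 fold change of −0.95 (SE 0.454) depended on which crushed nerves entered the fit. Without crushed nerve 1 it was −2.14, without crushed nerve 2 it was −0.619 and without crushed nerve 3 it was −0.576. The crushed mean of 3.42 CPM had an SD of 3.32 (n = 3), about as large as itself, while the intact mean was 6.68 ± 0.681 CPM (SD, n = 3). Atf3 lies at chr13:109817728-109849632, and the deposited table lists no other gene that overlaps it or any of the other 8 genes.

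The uneven Atf3 counts were among the values that chose this set, so its spread is given beside that of other genes as a description only. The comparison took the 9852 genes with a mean of at least 5 CPM over the 6 nerves, a level that Atf3 reached through the intact nerves and crushed nerve 1. The highest crushed nerve was 5.51 times the lowest for Atf3, whereas the median gene had a ratio of 1.08 and the 95th percentile was 1.26. A ratio at least this large among crushed nerves was found in 4 genes, Atf3 included. Ratios of at least 2, a limit well below the 5.51 of Atf3, were found in 29 of the 9852 genes among crushed nerves and in 20 among intact nerves. A ratio of 2 was thus not particular to Atf3 or to crushed nerves. Genes among intact nerves were not counted at the ratio of 5.51. Among the intact nerves the ratio of Atf3 was 1.23, beside a median of 1.11. For the other genes of the set that reached this level the ratio among crushed nerves ran from 1.06 (Egr1) to 1.28 (Fosb), and among intact nerves from 1.10 (Junb) to 1.35 (Jund).

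**Figure D4:**
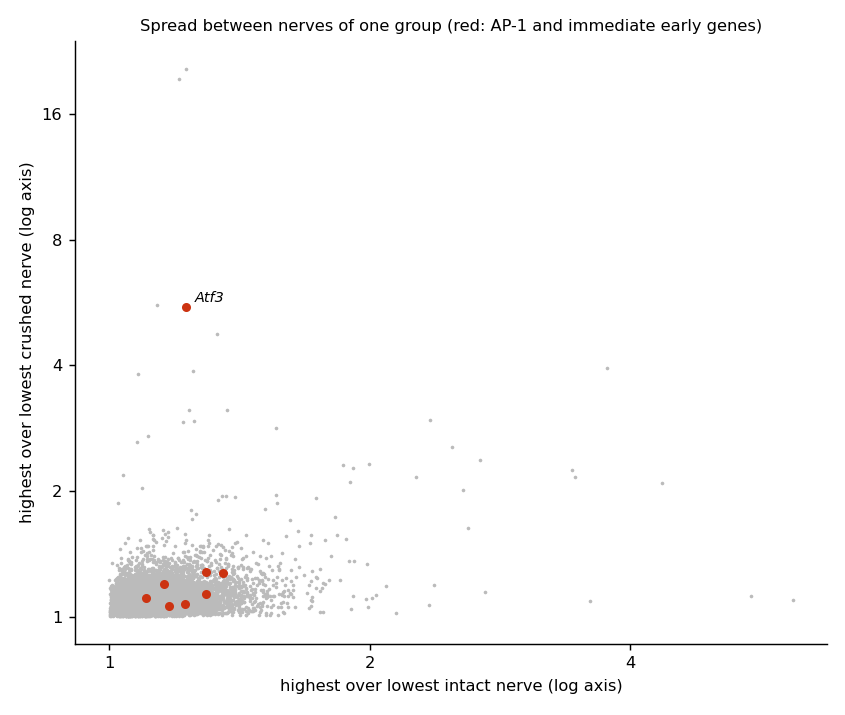
Ratio of the highest to the lowest nerve of a group in normalized CPM, for intact nerves (horizontal, log axis) and crushed nerves (vertical, log axis), with 1 grey point per gene of at least 5 CPM and the AP-1 and immediate early genes in red. Atf3 stands at 1.23 among the intact and 5.51 among the crushed nerves, away from the cloud that holds the other red points.

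Across the 6 nerves, the genes whose log2 levels followed Atf3 most closely were a row named Metazoa_SRP, a name carried by many rows (Pearson r = 0.991), Gramd1c (0.971), Hexim2 (0.969), Ogfod2 (0.968) and LOC100909593 (0.965). These are the top values among 9851 genes compared over 6 nerves, and are a description with no test. All genes of a nerve share its library and depth. Gramd1c, at 7.62, 7.58 and 8.27 CPM in intact and 7.32, 3.61 and 4.15 CPM in crushed nerves, was likewise high in crushed nerve 1 and low in crushed nerves 2 and 3. For Junb the closest gene was Nfkbie, which encodes an inhibitor of NF-kB (r = 0.997), at 9.05, 9.40 and 8.68 CPM in intact and 19.1, 18.9 and 16.8 CPM in crushed nerves. For Egr1 it was Hs6st1, a heparan sulfate sulfotransferase (r = 0.998). The closest genes were Rpl18 for Jun (0.998), Ppp1r14b for Fosl1 (0.996), Metrnl for Jund (0.994), Gpatch4 for Fosb (0.993) and Prdm15 for Fosl2 (0.980).

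Among partners that share the bZIP fold, 1 gene passed the test, beside 3.12% of all tested genes. Of 20 listed genes, 13 were tested, and the quasi-likelihood test of edgeR, adjusted by Benjamini-Hochberg, called 0 higher (0 at an unadjusted p of 0.05 and 0 by DESeq2) and 1 lower, with a median log2 fold change of −0.04. Maf, a large Maf factor that binds AP-1-like sites, fell from 21.4 ± 2.07 to 14.9 ± 1.40 CPM (SD, n = 3 each), from 589, 574 and 475 counts to 429, 360 and 392 (edgeR adjusted p = 0.015). That call was lost without intact nerve 2 or crushed nerve 2. Nfe2l1, the most abundant of the list and a regulator of proteasome genes, stood at 246 and 251 CPM, a log2 difference of 0.03 (SE 0.0391).

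In the fit with all 6 nerves, more of the other immediate early genes were called lower than higher. Among 32 tested of 34 listed, edgeR called 1 higher and 5 lower, beside a background of 3.12% called, and the median log2 fold change was −0.03. Trib1, a pseudokinase that guides protein degradation, fell from 667, 736 and 610 counts to 527, 517 and 479 (log2 fold change −0.46, SE 0.0699, edgeR adjusted p = 0.0044). Ctgf, a matricellular growth factor gene, had a log2 fold change of −0.49 (SE 0.0820, edgeR adjusted p = 0.0091), and Dusp1, a phosphatase that switches off MAP kinases, −0.34 (SE 0.0706, edgeR adjusted p = 0.026). Ier3, a survival gene, rose from 140 ± 9.08 to 165 ± 6.01 CPM (SD, n = 3 each, edgeR adjusted p = 0.044), a call lost without intact nerve 3 or any 1 of the crushed nerves and with the replicate block (adjusted p = 0.0730). Ctgf lost its call without crushed nerve 1 or 2, and Dusp1 and Klf4 without intact nerve 2 or any 1 of the crushed nerves. Klf4 and Sgk1 were also called lower, the latter in this fit but in none without 1 nerve. The call count of this list was 3 without intact nerve 2 (1 higher and 2 lower) and 1 without crushed nerve 1 (Trib1). It was 2 without crushed nerve 2 (1 higher and 1 lower) and 2 without crushed nerve 3 (0 higher and 2 lower). Plk2, the most abundant, showed 0.10 (SE 0.0367, edgeR adjusted p = 0.22).

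Kinases and factors upstream of the immediate early genes include serum response factor, the Elk factors, CREB and the JNK and ERK kinases. Of 32 listed, 26 were tested and 1 was called, a share near the 3.12% of all tested genes. None was higher by edgeR (2 at an unadjusted p of 0.05, 0 by DESeq2), and the median log2 fold change was −0.02. Mef2a, a MADS-box factor, fell from 4680, 5426 and 4579 to 3974, 4408 and 3906 counts (log2 fold change −0.31, SE 0.0558, edgeR adjusted p = 0.013), a call lost without intact nerve 2, crushed nerve 1 or crushed nerve 3. Leaving out intact nerve 1 gave 2 calls. Srf, the factor that binds CArG boxes, was at 81.7 ± 6.38 and 80.5 ± 1.17 CPM (SD, n = 3 each), and Elk3, the most abundant, had a log2 fold change of −0.06 (SE 0.0557).

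Known AP-1 target genes moved in both directions. Of 22 tested among 24 listed, edgeR called 3 higher and 3 lower, beside 3.12% of all tested genes called in either direction. Ccl2, Mmp9 and Mmp13 passed the limits of the study's methods, as 0.282% of all tested genes did. Those limits were a log2 fold change beyond 1 in either direction with an unadjusted p under 0.001. The list was drawn up with the results of Ccl2 and Mmp13 in these data already known, so nothing is read from these counts of calls. Ccl2, a monocyte chemokine, rose from 11.3 ± 2.66 to 38.5 ± 1.29 CPM (SD, n = 3 each, log2 fold change 1.77, SE 0.126, edgeR adjusted p = 2.3e-05). Mmp9, a gelatinase, rose from 25, 18 and 13 to 77, 59 and 60 counts (log2 fold change 1.74, SE 0.241, edgeR adjusted p = 0.0024), and Mt2A, a metallothionein, from 2539, 2244 and 2341 to 4115, 3525 and 3484 counts (0.58, SE 0.0689, edgeR adjusted p = 0.00086). The collagenase Mmp13 fell from 9828, 10143 and 8628 to 5306, 4826 and 4671 counts (−1.01, SE 0.0523, edgeR adjusted p = 2.6e-06). Spp1, which encodes osteopontin, had a log2 fold change of −0.56 (SE 0.0495, edgeR adjusted p = 0.00012), and Mmp10, a stromelysin, −0.69 (SE 0.151, edgeR adjusted p = 0.033). Mmp10 kept its call in 1 of the 6 fits without 1 nerve, and the other 5 genes in all 6. Ccnd1, the most abundant of the list, a cyclin of G1 phase, differed by −0.04 (SE 0.0461).

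A TRE was present in the promoters of 6 of the 17 AP-1 target genes that had a RefSeq promoter (Mmp3, Mmp10, Mmp12, Mmp13, Plaur and Mt2A), and in 4.63% of all promoters. The list was assembled as AP-1 targets, so this share is a description of the choice. Among the called genes of this list, Ccl2 and Mmp9 had no promoter entry and were not searched, and the Spp1 entry held no TRE. Windows of the called genes that held one are shown with the TRE in capitals. They are printed because genes with the same 7 letters moved in opposite directions, Mmp13 and Mmp10 lower and Mt2A higher. They are from GRCr8, at chr8:12782753-12782779 (plus), chr8:12974636-12974662 (plus) and chr19:10838929-10838955 (minus), and that of Mmp10 holds the reverse complement.
Mmp13: ccccaagtggTGACTCAtcactattgc
Mmp10: agcacccacaTGAGTCAtgcttagtga
Mt2A: aaagggggtgTGACTCAgcgcgggggc

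**Figure D5:**
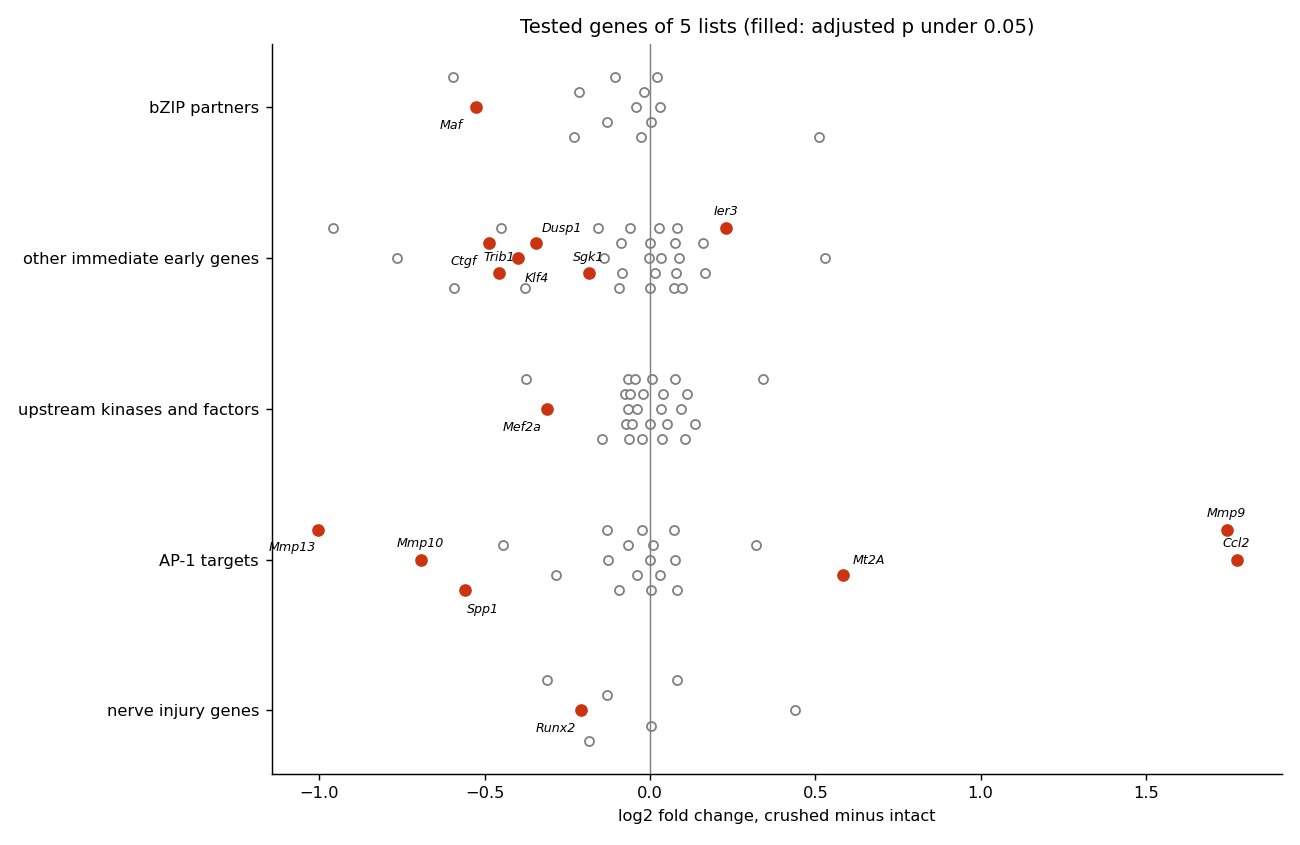
Log2 fold change (crushed over intact, horizontal) of the tested genes of 5 lists, with vertical scatter for legibility only and filled red points for genes past an adjusted p of 0.05. Ccl2 and Mmp9 lie farthest to the right at 1.77 and 1.74, and Mmp13 farthest to the left at −1.01.

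Genes described as following Jun or Atf3 in Schwann cells or neurons after nerve injury were mostly too low to test. Of 15 listed, 7 were tested, and Gap43, Shh, Olig1 and Gal had 0 counts in all 6 nerves. Stmn2, also too low to test, had 6, 9 and 5 counts in intact and 0, 0 and 0 in crushed nerves. Ngfr, likewise not tested, had 4, 3 and 5 against 2, 0 and 0, and the untested Artn and Sprr1a overlapped between the groups. By edgeR 0 were higher (1 at an unadjusted p of 0.05, 0 by DESeq2) and 1 lower, beside 3.12% of all tested genes called, with a median log2 fold change of −0.13. Runx2, the most abundant of these and a Runt-domain factor, fell from 190 ± 5.58 to 164 ± 4.69 CPM (SD, n = 3 each, edgeR adjusted p = 0.022), a call lost without intact nerve 2, intact nerve 3, crushed nerve 1 or crushed nerve 2.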

How the data were processed

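Total RNA from 3 intact and 3 crushed rat sciatic nerves was sequenced, and groups were taken from the sample labels. The authors deposited 1 table with a whole-number count of reads per gene and nerve. FPKM values in the same table, deposited by the authors, scale those counts by gene length and library total. The submitters' processing notes name HISAT2, StringTie 1.3.0 and Rnor_6.0 without giving roles. The annotation release, counting rule and strand setting are not given in the sources used here. All 12 columns of values were used.

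In R 4.3.3, counts were scaled by TMM, passed through filterByExpr and fitted in edgeR 4.0.16 by quasi-likelihood, without a replicate term. limma was version 3.58.1. The p-values were adjusted by Benjamini-Hochberg over 12393 genes. CPM in the text are TMM-normalized. The alternatives were a replicate block, DESeq2 1.42.0, RLE factors, library size alone, no filter, limma on log2(FPKM + 0.1) and log2(FPKM + 1), the study's limits, and each nerve left out. The script was tested on simulated data. Likeness was Pearson's r of log2(CPM + 0.5) over 6 nerves.

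Titles number the nerves 1 to 3 in each group. The deviations of same-numbered nerves correlated at −0.0148, 0.00586 and 0.0756, all under 0.1, so the main fit did not pair them. These values cannot show that the nerves were unpaired, because the controls were contralateral and the numbers may not mark the pairs. A fit with the replicate number as a block was among the alternatives.

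The genes and the 5 lists were chosen with earlier results of these data known, for the lists those of Ccl2 and Mmp13. Named were all genes of the set, up to 3 higher and 3 lower called genes of each list with the smallest p, the most abundant gene of each list, and the genes nearest in pattern. Srf, Klf4, Sgk1, Creb5, Csrnp1, Mef2c and the promoter matches were added after their values were seen. Promoters (250 bases before to 50 after the start) came from RefSeq, GRCr8, by symbol, for 7 of the 10 genes. Motifs were searched on both strands, and a full CRE also holds CRE cores. GRCr8 and deposited coordinates were not mixed. One marker gene of the Schwann cell and myelin list is not reported here.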

Additional observations from a re-analysis of the deposited data

How the results depend on the processing

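Over the alternatives tried, no gene of the set changed direction except Fosl2, whose log2 fold change ran from −0.0619 to 0.0955, and the value of Atf3 ran from −2.14 without crushed nerve 1 to −0.562. With the replicate block 300 genes were called in place of 387, and Ier3 (adjusted p = 0.0730), Sgk1 (0.0829) and Mmp10 (0.0545) lost their calls in edgeR. Over all genes, 242 were called with limma on log2(FPKM + 0.1), 256 on log2(FPKM + 1), 35 with the study's limits and 179 to 392 without 1 nerve (179 without crushed nerve 1, 183 without crushed nerve 2, 211 without crushed nerve 3, 251 without intact nerve 2). Under the study's limits the lists held 0 calls among bZIP partners, 0 among other immediate early genes, 0 among upstream genes, 3 among AP-1 targets and 0 among injury genes. With limma the calls were 1 and 2 for other immediate early genes, 0 and 0 for upstream genes and 0 and 0 for injury genes (pseudocounts 0.1 and 1). Without the filter, injury genes had 2 calls. Without 1 nerve the calls ran from 0 to 1 for bZIP partners, 1 to 6 for other immediate early genes, 0 to 2 for upstream genes, 5 to 6 for AP-1 targets and 0 to 1 for injury genes. The causes of these changes were not tested. Fos, with 45 to 59 counts per nerve, was the gene of the set with the fewest counts apart from Atf3 in crushed nerves 2 and 3.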

Other observations

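Among genes of the 5 lists, single nerves stood apart in other places too. Creb5, a bZIP factor of the CREB family, had 364, 105 and 369 counts in crushed nerves, against 325, 314 and 312 in intact nerves. The low nerve was crushed nerve 2, which was also low for Atf3, but crushed nerve 3 was not low for Creb5. Csrnp1, an immediate early gene, had 262, 733 and 614 counts in intact and 664, 746 and 290 in crushed nerves, so 1 nerve of each group was low. Mef2c, a MADS-box factor, had 768, 907 and 1176 counts in intact and 1113, 591 and 596 in crushed nerves, with crushed nerve 1 high as for Atf3. None of these 3 genes passed the adjusted p limit in edgeR's quasi-likelihood test.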
